A study of Mus musculus with 11 samples.

Results

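The NKG2, CD94 and NKR-P1 lectin receptors are 9 genes of natural killer (NK) cells, Klrk1, Klrc1, Klrc2, Klrd1, Klrb1c, Klrb1f, Klre1, Klri2 and Klrg1, taken by symbol from the 24421 genes of the count table. All 9 were found, and all 9 passed the filter on low counts that left 13711 genes for testing. The cells were Ly49H+ NK cells sorted from the spleens of C57BL/6 mixed bone marrow chimeras, with CD45.2 on the LDHA-deficient (KO) cells and CD45.1 on the wild type (WT), and mouse cytomegalovirus (MCMV) infection in vivo is given as the treatment of every sample. Ly49H is an activating receptor that recognises an MCMV protein, and Ldha encodes a subunit of lactate dehydrogenase, which converts pyruvate to lactate. The titles put the 11 libraries into 4 groups, KO D2 with 3, WT D2 with 3, KO D0 with 3 and WT D0 with 2. The label for days after infection reads day 2 for all 11 libraries, so D0 and D2 are used as the titles' terms, and the genotype label of the WT libraries names both genotypes, so the title decided. The allele or Cre line behind the deficiency and the ages of the mice are not given in the sources used here. The sort took cells that stained for NK1.1, DX5 and Ly49H and lacked TCRb and CD3e, and the labels call each sample an individual mouse.

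These receptors are type II membrane proteins with a C-type lectin-like outer domain, and their genes lie in the NK gene complex, apart from Klrg1, which lies on the same chromosome outside it. Some activate the cell through adaptor proteins and some inhibit it by recruiting phosphatases to their own tails, so that NK cells weigh ligands of both kinds. Klrk1 encodes NKG2D, an activating receptor for ligands that stressed or infected cells display, and it signals through DAP10 (Hcst) and, in the mouse, DAP12 (Tyrobp). Klrd1 encodes CD94, which pairs with the inhibitory NKG2A (Klrc1) or the activating NKG2C (Klrc2), and both pairs bind the MHC class Ib molecule Qa-1b (H2-T23). Klrb1c encodes NKR-P1C, the activating receptor that carries the NK1.1 antigen in C57BL/6 mice. It is therefore a gene of the sort itself: every cell taken stained for its product. Klrb1f encodes NKR-P1F, which binds Clr-g (Clec2i). In the rat, the product of Klre1 pairs with that of Klri1 in an inhibitory and with that of Klri2 in an activating receptor. Klrg1 encodes an inhibitory receptor for cadherins that is found on mature NK cells.

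In GRCm38.p6 coordinates from RefSeq, 8 of the genes lie on chromosome 6 between Klrb1c (chr6:128778485-128788641, minus strand) and Klri2 (chr6:129729041-129740484, minus strand), and Klrg1 lies at chr6:122270596-122282833 on the minus strand. Klrc2 (chr6:129649602-129660737) and Klrc1 (chr6:129666015-129682852) are neighbours on the minus strand with similar sequences. Of the distinct 31-base stretches of Klrc1 transcripts, 53.1% also occur in transcripts of other genes, 49.6% in those of Klrc2. The share was 21.6% for Klrc2 and 21.2% for Klrb1c, and at most 7.62% for the other 6. How the authors' counting divided such reads between Klrc1 and Klrc2 is not given in the sources used here, so their separate values are uncertain.

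The windows around the RefSeq transcription starts are shown for Klrc2 and Klrb1c, the members that fell most at D2 against D0 and whose levels went together across libraries, and for Klrc1, the near copy of Klrc2 that did not pass the test. Each holds 300 bases, 250 before the start and 50 after it, printed 5′ to 3′ on the strand of the gene. Capitals mark TGTGGT or its reverse complement ACCACA, the core bound by RUNX factors, and TGAGTCA or its reverse complement TGACTCA, bound by AP-1 factors. The 2 motifs do not overlap each other in these windows.
Klrc2 promoter, chr6:129660547-129660846, minus strand: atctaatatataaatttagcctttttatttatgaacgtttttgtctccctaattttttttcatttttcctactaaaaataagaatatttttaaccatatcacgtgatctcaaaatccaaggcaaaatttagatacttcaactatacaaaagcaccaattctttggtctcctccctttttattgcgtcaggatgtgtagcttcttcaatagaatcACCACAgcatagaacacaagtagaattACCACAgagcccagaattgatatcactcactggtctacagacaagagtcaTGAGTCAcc
Klrb1c promoter, chr6:128788592-128788891, minus strand: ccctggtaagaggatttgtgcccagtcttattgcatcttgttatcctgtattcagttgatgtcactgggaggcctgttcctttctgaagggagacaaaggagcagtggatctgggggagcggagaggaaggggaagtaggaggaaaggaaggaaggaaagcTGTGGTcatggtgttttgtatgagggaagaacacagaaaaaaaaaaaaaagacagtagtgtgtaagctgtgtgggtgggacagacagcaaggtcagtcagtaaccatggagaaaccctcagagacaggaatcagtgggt
Klrc1 promoter, chr6:129678924-129679223, minus strand: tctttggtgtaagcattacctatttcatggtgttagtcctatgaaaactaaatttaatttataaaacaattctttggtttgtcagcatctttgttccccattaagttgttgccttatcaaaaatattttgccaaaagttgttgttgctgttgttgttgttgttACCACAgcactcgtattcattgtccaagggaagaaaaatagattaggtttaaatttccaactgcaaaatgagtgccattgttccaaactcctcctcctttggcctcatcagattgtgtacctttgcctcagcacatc
The Klrc2 window held 2 matches to the RUNX core and 1 to the AP-1 motif, the Klrb1c window 1 and 0, and the Klrc1 window, which lies inside the annotated gene, 1 and 0. Klrc2 has a further start in the table, and its first listed window is shown. Of 32851 promoters of this length, 16.8% hold the RUNX core on either strand and 5.2% the AP-1 motif. The table holds windows for 6 of the 9 members, these and Klrk1, Klrb1f and Klre1. A match is a description of the letters and not a bound site.

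Library totals ran between 19452460 and 27992092 counts, which puts a floor of 3 counts between 0.107 and 0.154 CPM (counts scaled to a common library size, with TMM factors). Intervals and floors of this kind cover counting error only. The members had between 1412 (Klrc2 in WT D2 replicate 2) and 51492 counts (Klrk1 in WT D0 replicate 3) per library, so counting error was small beside the spread between libraries. Ldha averaged 109.6 ± 7.17 CPM in KO D2 and 2903 ± 179 CPM in WT D2 (SD, n = 3 each). At D0 it averaged 99.3 ± 7.16 CPM in KO (SD, n = 3) and 609.3 ± 66.2 CPM in WT (SD, n = 2). All 8 markers of NK cells were detected in every group, with sums between 11700 and 22700 CPM. The sums hide markers that differed. In KO against WT, 3 were called lower at D2 (Ncr1, Eomes and Tbx21), where 14.5% of all tested genes were. Ncr1 was called lower at D0, where 0.153% of all genes were called in either direction. At D2 against D0, 4 were called higher and 4 lower in KO, where 27.0% and 34.5% of all genes were. In WT, 3 were called higher and 3 lower, where 27.5% and 26.0% were. Summed markers of T cells reached at most 162 CPM, those of B cells 9.47, macrophages and monocytes 66.2, neutrophils 7.22, dendritic cells 20.1, ILC1 15.2 and erythroid cells 703 CPM. Pax5, which defines B cells, was at 0 counts in every D2 library. In sorted bulk samples, a lower level in every cell and fewer cells with the RNA cannot be told apart.

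The 3 KO D0 libraries differed from each other at several members before any comparison. Klrc1 had 680.8, 315.7 and 133.5 CPM in KO D0 replicates 1, 2 and 3, a 5.1-fold range, against 1.16-fold in KO D2. Klrd1 had 860.9, 547.4 and 297.9 CPM, Klre1 656.7, 424.1 and 289.9 CPM, and Klri2 695.2, 438.8 and 286.3 CPM in the same 3 libraries. Replicate 3 was the lowest of the 3 at all 9 members. The longest coding transcripts of the members hold between 35.8% and 47.7% G or C, against a median of 49.9% over the 12817 tested genes with a transcript (93.5% of those tested). Their most GC-rich 100-base window holds between 47% and 63%, against a median of 72%. A smooth fit of each gene's deviation on these 2 properties over all tested genes put Klrc1 at -1.29 on the log2 scale in KO D0 replicate 3, where -1.65 was observed. For Klre1 in that library the fit gave -0.96 and the observed deviation was -0.86. Other members lay further from the fit in the same library. These deviations are from the mean over all 11 libraries, so they also hold any difference between D0 and D2. For Klrc2 the fit gave -1.24 where 0.46 was observed, and for Klrb1c -0.29 where 0.67 was observed. For Klrd1 it gave -1.51 where -0.70 was observed, and for Klrk1 -0.68 where -0.16 was observed. Klrc2, Klrb1c, Klrd1 and Klrk1 also lay above the fit in KO D0 replicates 1 and 2, so this was not particular to replicate 3. Klrb1c, for example, was observed at 0.90 and 0.73 there, where the fit gave -0.21 and -0.29. The part of base composition in the low position of this library was not tested beyond the fits with the GC term as an offset, an alternative for each comparison added after the data were seen. The offset also takes out any change in RNA level that goes with GC content across genes.

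**Figure D1:**
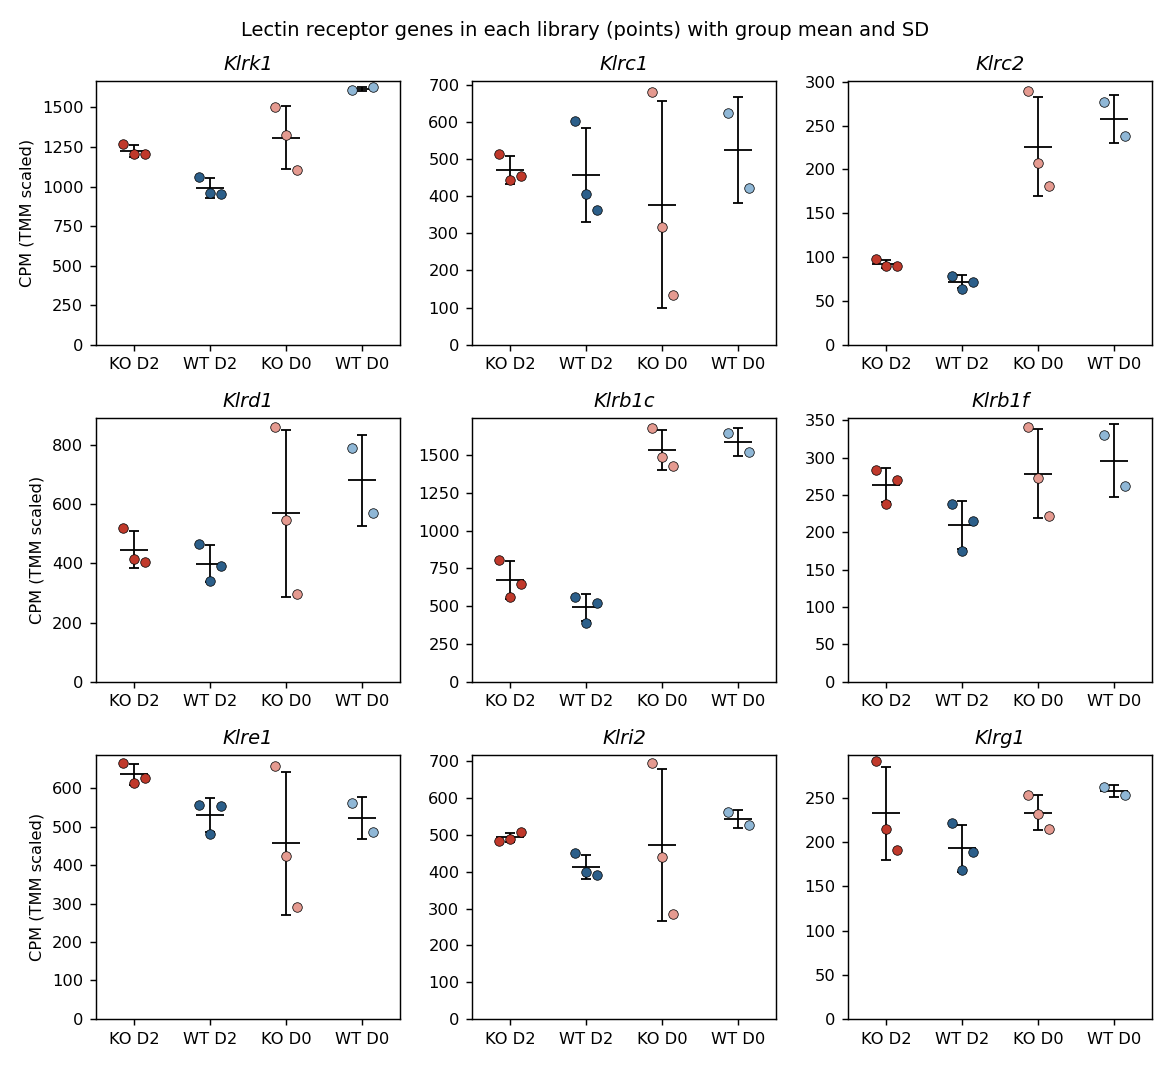
Level of each of the 9 members in each library, in CPM with TMM scaling, by group (points; line and bars, mean and SD). The D2 libraries of Klrc2 and Klrb1c all lie below the D0 libraries, and Klrc1 in KO D0 spreads between 133.5 and 680.8 CPM.

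Klrc2 and Klrb1c fell at D2 against D0 in both genotypes, and they were the 2 members called in KO cells. Klrc2 had 97.5, 89.7 and 89.3 CPM in KO D2 libraries, against 289.5, 206.8 and 181 CPM in KO D0 libraries. In WT it had 78.8, 63.9 and 71.9 CPM at D2, against 277.1 and 238.6 CPM at D0. Every D2 library lay below every D0 library. The log2 fold change was -1.29 (SE 0.16, edgeR adjusted p = 1.7e-05) in KO, or 0.408 times the D0 level, and -1.85 (SE 0.18, edgeR adjusted p = 2.1e-06) in WT, or 0.277 times. With the counts of Klrc1, Klrc2 and Klrc3 summed before the fit, the sum changed by -0.13 (edgeR adjusted p = 0.73) in KO and -0.58 (edgeR adjusted p = 0.16) in WT. Klrc1 had between 2890 and 19348 counts per library and Klrc2 between 1412 and 8578, so the sum does not show Klrc2 alone.

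Klrb1c, the NK1.1 gene, had 807.9, 562.7 and 648.5 CPM in KO D2 libraries, against 1680, 1489 and 1428 CPM in KO D0 libraries. In WT it had 563.1, 391.1 and 523.7 CPM at D2, against 1649 and 1518 CPM at D0. Again no D2 library reached a D0 library. Its log2 fold change was -1.19 (SE 0.16, edgeR adjusted p = 3.0e-05) in KO and -1.69 (SE 0.17, edgeR adjusted p = 4.1e-06) in WT. Klrc2 and Klrb1c kept their calls in both genotypes without each of the 11 libraries in turn and under each other setting tried that kept them as separate genes.

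Klrk1 fell in WT and did not pass the test in KO. It had 1063, 956.9 and 950.7 CPM in WT D2 libraries, against 1609 and 1628 CPM in WT D0 libraries, a log2 fold change of -0.71 (SE 0.13, edgeR adjusted p = 4.8e-04). In KO it had 1270, 1205 and 1205 CPM at D2, against 1500, 1326 and 1102 CPM at D0, and these ranges overlap (log2 fold change -0.10, SE 0.12, edgeR adjusted p = 0.50). Klrb1f had 238.4, 175.6 and 215.8 CPM in WT D2, against 330.3 and 261.8 CPM in WT D0 (log2 fold change -0.50, SE 0.18, edgeR adjusted p = 0.037). Its call was lost without WT D0 replicate 2 (-0.38, edgeR adjusted p = 0.19) or WT D2 replicate 2 (-0.38, edgeR adjusted p = 0.13). In KO the Klrb1f ranges overlapped, with 282.9, 238.6 and 269.8 CPM at D2 against 340.9, 273.1 and 222.1 CPM at D0.

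**Figure D2:**
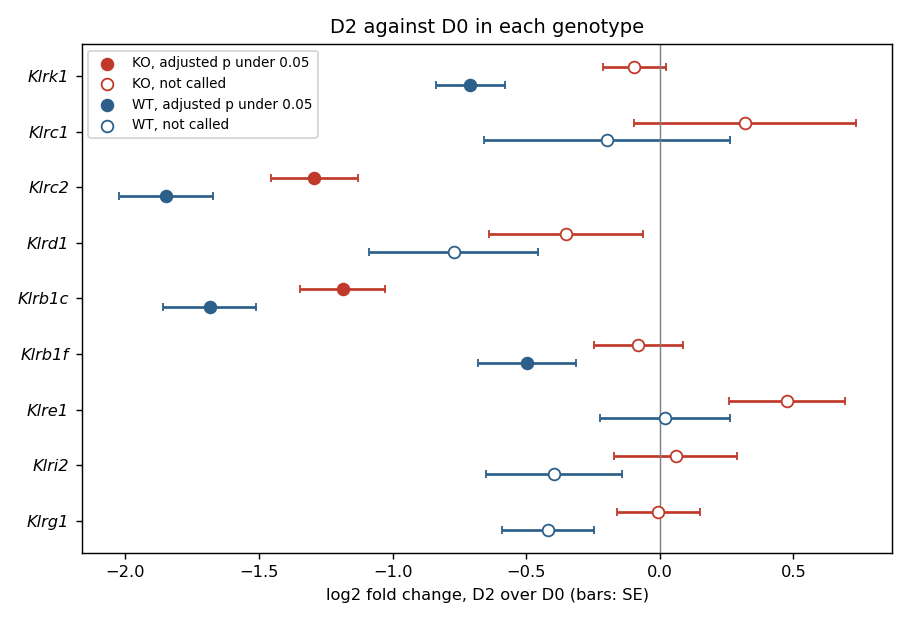
log2 fold change of each member, D2 over D0, in KO (red) and WT (blue); bars are SE and filled points passed an adjusted p of 0.05. Klrc2 and Klrb1c lie furthest below 0 in both genotypes, at -1.29 and -1.19 in KO and at -1.85 and -1.69 in WT.

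At D2 against D0, 2 of the 9 members were thus called lower in KO, where 34.5% of all tested genes were, and 4 in WT, where 26.0% were. None was called higher, where 27.0% of all genes were in KO and 27.5% in WT, and Klre1 in KO missed the threshold (log2 fold change 0.48, SE 0.22, edgeR adjusted p = 0.075). By unadjusted p under 0.05, 3 members differed in KO, where 64.9% of all genes did, and 6 in WT, where 58.5% did. The D2 and D0 libraries did not overlap at 2 members in KO, where 67.0% of all genes did not, and at 7 in WT, where 68.5% did not. In WT, Klrd1 had a log2 fold change of -0.77 (edgeR adjusted p = 0.057), Klrg1 of -0.42 (adjusted p = 0.058) and Klri2 of -0.40 (adjusted p = 0.21). The members' median was -0.08 in KO, against -0.20 over all genes, and -0.50 in WT, against -0.07. Under RLE scaling the median of all genes was -0.09 in KO and -0.06 in WT. Over the 1329 other genes whose 2 GC properties lie within the range of the members, a class set after the data were seen and described with no test, the median was 0.15 in KO and -0.03 in WT. The counts depended on single KO D0 libraries. Without KO D0 replicate 1, 5 members were called in KO, 3 of them higher (Klrc1, Klre1 and Klri2), where 26.4% of all genes were called higher and 35.4% lower, and 7 were lower in WT, where 29.1% were. Without KO D0 replicate 3, 4 were called lower in KO (Klrk1, Klrc2, Klrd1 and Klrb1c), where 34.9% of all genes were, and 7 in WT, where 29.0% were.

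With the GC offset, all 9 members lay below 0 in both genotypes, and 8 were called lower in KO (35.3% of all genes) and 8 in WT (33.3%). Klrc1 was the exception in both. The offset turned Klre1 to -0.22 (SE 0.09, edgeR adjusted p = 0.042) in KO, while RLE scaling and DESeq2's Wald test each put it at 0.59 and called it higher (adjusted p = 0.032 and 0.022). Its direction in KO thus differs between settings. Klrc2 moved to -2.10 and Klrb1c to -1.74 in KO, and to -2.14 and -2.13 in WT.

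**Figure D3:**
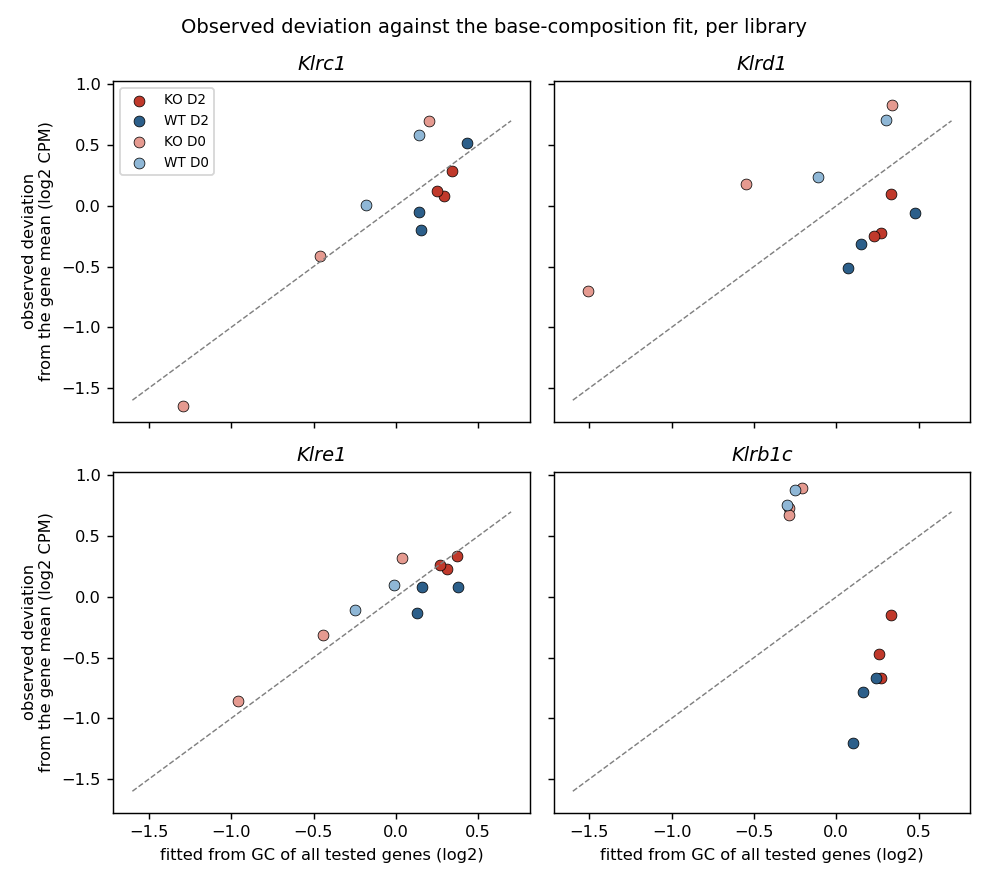
Observed deviation of 4 members from their mean over libraries (vertical axis, log2 CPM) against the deviation fitted from the GC content of all tested genes (horizontal axis, log2), 1 point per library; the dashed line marks equality. Klre1 lies near the line, and Klrc1 less near, at 0.70 against a fit of 0.20 in KO D0 replicate 1. KO D0 replicate 3 is at the lower end for both. The D2 and D0 libraries of Klrb1c lie on opposite sides of the line.

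The ratio of counts within a library does not depend on scaling between libraries. Klrc2 over Klrc1, the activating over the inhibitory partner of CD94, was 0.19, 0.203 and 0.197 in KO D2, 0.131, 0.158 and 0.198 in WT D2, 0.425, 0.655 and 1.36 in KO D0, and 0.443 and 0.564 in WT D0. All 6 D2 ratios lay below all 5 D0 ratios, and the KO D0 ratios spread most, as Klrc1 itself did. Klrb1c over Klrk1 was 0.636, 0.467 and 0.538 in KO D2, 0.53, 0.409 and 0.551 in WT D2, 1.12, 1.12 and 1.3 in KO D0, and 1.02 and 0.932 in WT D0. A ratio shows unequal change and not which gene changed.

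**Figure D4:**
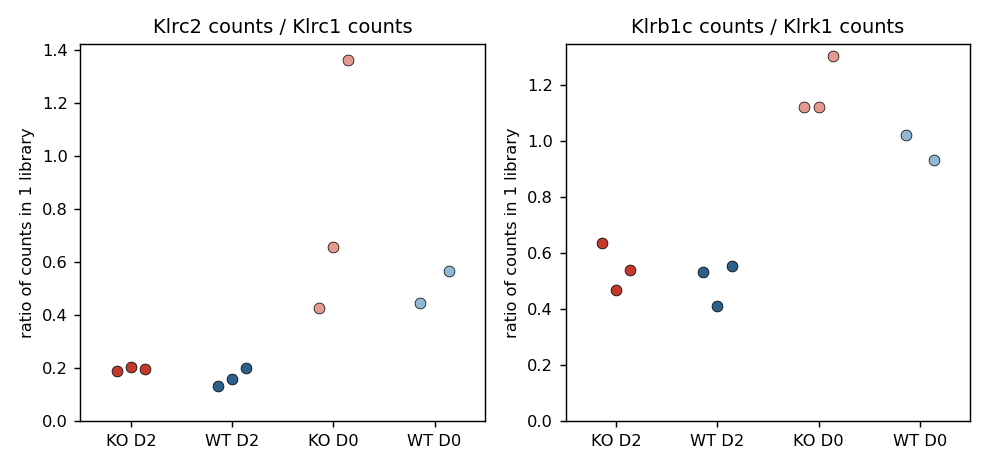
Ratio of counts within each library for Klrc2 over Klrc1 (left) and Klrb1c over Klrk1 (right), by group, 1 point per library. For both ratios the 6 D2 libraries lie below the 5 D0 libraries.

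Between genotypes at D2, all 9 members had higher means in KO than in WT, and none was called in the main edgeR fit. The share of all tested genes called higher was 1.61%. The log2 fold changes lay between 0.04 (Klrc1) and 0.45 (Klrb1c), with a median of 0.27, against 0.01 over all genes. Under RLE scaling the median of all genes was 0.10. Over the 1329 genes in the GC range of the members the median was 0.13, and 69% of them lay above 0. By unadjusted p under 0.05, 25.8% of all genes differed, and 3 members did: Klrk1 (log2 fold change 0.31, SE 0.12, edgeR adjusted p = 0.10), Klrc2 (0.37, SE 0.16, adjusted p = 0.17) and Klrb1c (0.45, SE 0.16, adjusted p = 0.076). The KO and WT libraries did not overlap at 5 of the 9, Klrk1, Klrc2, Klrb1f, Klre1 and Klri2, nor at 33.8% of all genes. Klre1, for example, had 666, 614.7 and 627.7 CPM in KO D2, against 556.6, 480.3 and 553.9 CPM in WT D2.

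At D2 the libraries with the same number deviated together across all genes, and the fit with the replicate number as a block within day called 5 members higher, Klrk1, Klrc2, Klrb1c, Klrb1f and Klre1, where 6.56% of all genes were called higher. Blocked values were 0.31 (SE 0.07, edgeR adjusted p = 0.0088) for Klrk1, 0.37 (SE 0.08, adjusted p = 0.0047) for Klrc2 and 0.45 (SE 0.07, adjusted p = 7.3e-04) for Klrb1c. They were 0.34 (SE 0.07, edgeR adjusted p = 0.0060) for Klrb1f and 0.27 (SE 0.08, adjusted p = 0.035) for Klre1. The block left the sizes as they were and lowered the errors. Fitting the D2 groups alone with no block also lowered some errors. The SE was 0.077 for Klre1 and 0.07 for Klri2, against 0.218 and 0.229 in the main fit, while Klrb1c stayed at 0.16. That fit called 4 members higher, Klrk1, Klrc2, Klre1 and Klri2, where 4.02% of all genes were called higher. With the GC offset added to the block, 4 were called, where 14.4% of all genes were called higher, and Klre1 was not (0.17, edgeR adjusted p = 0.094). The GC offset alone called none of the 9. It also changed the split over all genes, to 1216 called higher (8.87%) and 1254 lower (9.15%), against 221 and 1986 (14.5%) without it. Without KO D0 replicate 3, Klrk1 was called (edgeR adjusted p = 0.040), where 1.86% of all genes were called higher, and without KO D2 replicate 2, Klrb1c was (0.56, adjusted p = 0.044), where 1.12% were. The value of Klrb1c was 0.28 (edgeR adjusted p = 0.38) without KO D2 replicate 1 and 0.31 (adjusted p = 0.30) without WT D2 replicate 2.

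At D0 the order was turned round: all 9 members had lower estimates in KO than in WT. None was called in the main edgeR fit or by DESeq2, where the main fit called 0.153% of all genes in either direction. The log2 fold changes lay between -0.48 (Klrc1, SE 0.46) and -0.05 (Klrb1c, SE 0.18), with a median of -0.20, against 0.02 over all genes and -0.06 over the 1329 in the GC range of the members. Klrk1 was the 1 member with an unadjusted p under 0.05, as 4.35% of all genes had (edgeR adjusted p = 1.0), and the 1 whose libraries did not overlap, as those of 16.5% of all genes did not, with 1500, 1326 and 1102 CPM in KO D0 against 1609 and 1628 CPM in WT D0. The shared direction rested on 1 library: without KO D0 replicate 3, the lowest at every member, 5 of the 9 were below 0 and the median was -0.01. With the GC offset, 4 of the 9 were below 0. The edgeR fit with the replicate block within day called 5 lower, Klrk1, Klrc1, Klrd1, Klre1 and Klri2, where 1.17% of all genes were called lower. WT D0 has no replicate 1, so KO D0 replicate 1 had no partner and added nothing to this blocked comparison. It was the highest KO D0 library at every member. The members' median was -0.42 with the block, and -0.43 in the fit with no block and without KO D0 replicate 1, which called none. Same-numbered libraries at D0 correlated at 0.028 and 0.41, while KO D0 replicate 1 and WT D0 replicate 2, of unlike number, correlated at 0.376. With 2 WT D0 libraries the deviations of 1 mirror those of the other, so 0.41 for replicate 3 is the reverse of -0.41 with WT D0 replicate 2. Pairing by number is therefore not established at D0 and is less clear there than at D2.

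**Figure D5:**
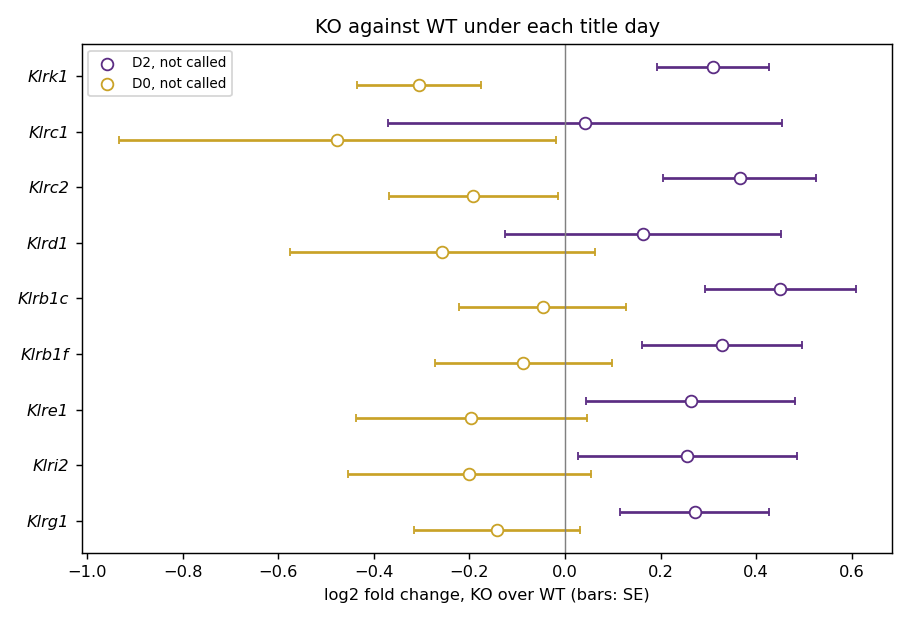
log2 fold change of each member, KO over WT, at D2 (purple) and D0 (yellow); bars are SE and open points did not pass an adjusted p of 0.05. The D2 values lie between 0.04 and 0.45 and the D0 values between -0.48 and -0.05.

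The difference between the genotypes in their D2 against D0 change was above 0 for all 9 members, that is, the members lay less far below, or further above, their D0 level in KO. None was called in the main edgeR fit, where 5.84% of all genes were called in either direction, and 2 had an unadjusted p under 0.05, as 17.7% of all genes had. Klrk1 came closest (0.61, SE 0.18, edgeR adjusted p = 0.060), followed by Klrc2 (0.56, SE 0.24, adjusted p = 0.23). DESeq2 called Klrk1 (0.72, adjusted p = 0.0089), where it called 0.671% of all genes higher. Without KO D0 replicate 1, edgeR called 4 members, Klrk1, Klrc2, Klre1 and Klri2, where 0.640% of all genes were called higher, and without WT D2 replicate 1 it called Klrk1 (adjusted p = 0.043), where 0.234% were. The median over the members was 0.46, and 0.12 with the GC offset. Over all genes it was -0.04, or 0.06 under RLE scaling. Over the 1329 genes in the GC range of the members it was 0.21, and 70.8% of them lay above 0. The comparisons share their libraries, so that the D2, D0 and difference values of a gene are not separate pieces of evidence.

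Levels can be compared between genes only per length. Per kilobase of the longest coding transcript, Klrd1 and Klre1 led in KO D2, at 485 and 492 CPM per kb, followed by Klrk1 at 384, Klrb1c at 257, Klrc1 at 237, Klrg1 at 165, Klrb1f at 155 and Klri2 at 126. Klrc2 was lowest, at 32.8 CPM per kb in KO D2 and 25.4 in WT D2, against 80.3 in KO D0 and 91.7 in WT D0. In WT D0, Klrd1 led at 740 CPM per kb, before Klrb1c at 604 and Klrk1 at 506. The order depends on which transcript is used: with the median coding length, Klrk1 led in KO D2 at 966 CPM per kb.

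Across the 11 libraries the members did not share 1 pattern. Pearson's r of log2(CPM + 1) was 0.979 between Klrc2 and Klrb1c, and 0.891 between Klrc1 and Klre1, but 0.003 between Klrc1 and Klrc2 and -0.286 between Klrb1c and Klre1. These values describe libraries that share depth, day and base composition, and carry no test. Among the 9354 other genes that averaged 5 CPM or more, those most like Klrc2 were Trp53inp1 (r = 0.993), Tmem59 (0.992) and Nptn (0.991). Those most like Klrb1c were Tmem254b (0.993), Slc28a2 (0.993) and Gsap (0.992). For Klrk1 they were Clk4 (0.974), Zfp54 (0.971) and 1810030O07Rik (0.956), and for Klrb1f Slc35a5 (0.945), Sh2d1a (0.937) and Ptgr2 (0.936).

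Some of the adaptors that carry the signal of the activating members were lower at D2 against D0. Of 4 adaptors, 2 were called lower in KO, where 34.5% of all tested genes were, and 3 in WT, where 26.0% were. Hcst (DAP10), the partner of NKG2D, averaged 44.4 ± 4.81 CPM in KO D2 against 125.4 ± 17.3 CPM in KO D0 (SD, n = 3 each), a log2 fold change of -1.496 (SE 0.16, edgeR adjusted p = 3.7e-06). In WT it changed by -1.66 (SE 0.17, edgeR adjusted p = 4.0e-06). Klrk1, the NKG2D gene, did not pass the test in KO (log2 fold change -0.10, edgeR adjusted p = 0.50). Tyrobp (DAP12) averaged 541.5 ± 41.8 CPM in KO D2 against 1022 ± 85.0 CPM in KO D0 (SD, n = 3 each), and changed by -0.92 in KO and -1.16 in WT (edgeR adjusted p = 2.0e-05 and 7.3e-06). None of the 4 was called between genotypes. Of 20 genes that signal below the receptors, 12 were called lower and 1 higher in KO, and 9 lower and 2 higher in WT, with medians of -0.72 and -0.33. Over all tested genes, 34.5% were called lower and 27.0% higher in KO, and 26.0% and 27.5% in WT. Syk, a kinase that binds phosphorylated adaptors, fell by 1.82 on the log2 scale in KO and by 1.53 in WT (edgeR adjusted p = 1.4e-06 and 1.4e-05). At D2, 3 of the 20 were called lower in KO than in WT (14.5% of all genes were) and none higher (1.61%). Ptpn11, which encodes the phosphatase SHP-2, was the lowest of these by adjusted p (log2 fold change -1.11, SE 0.20, edgeR adjusted p = 0.0018), and Crk, an adaptor protein, was another (-0.99, SE 0.26, adjusted p = 0.018). Ptpn11 also differed between the genotypes in its D2 against D0 change (-1.28, SE 0.30, edgeR adjusted p = 0.029).

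Of 20 genes for ligands of the members or of related receptors, 16 were in the table and 10 were tested. At D2 against D0, 3 rose and 3 fell in each genotype. Of all tested genes, 27.0% were called higher and 34.5% lower in KO, and 27.5% and 26.0% in WT. H2-T23, whose product Qa-1b is bound by CD94 with NKG2A or NKG2C, averaged 1574 ± 162 CPM in KO D2 against 555.7 ± 54.0 CPM in KO D0 (SD, n = 3 each), a log2 fold change of 1.502 (SE 0.12, edgeR adjusted p = 3.0e-07). In WT it changed by 1.31 (SE 0.14, edgeR adjusted p = 4.1e-06). Clec2d, whose product Clr-b is bound by an inhibitory NKR-P1 receptor, rose by 2.01 in KO (edgeR adjusted p = 1.8e-05), at a level of 10.7 ± 1.77 CPM in KO D2 (SD, n = 3). It also rose in WT, by 1.76 (edgeR adjusted p = 2.1e-04). Clec2i, the ligand gene of NKR-P1F, was lower in both genotypes. Its log2 fold change was -1.89 in WT (edgeR adjusted p = 4.1e-05) and -1.22 in KO (edgeR adjusted p = 5.6e-04). Between genotypes at D2, H2-D1, a classical MHC class I gene, was lower in KO (-0.58, SE 0.13, edgeR adjusted p = 0.0076), at 4096 ± 89.1 CPM in KO D2 and 6107 ± 3.91 CPM in WT D2 (SD, n = 3 each). No ligand gene was called at D0 by edgeR.

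Of 17 other lectin receptor genes, 16 were in the table and 10 were tested. At D2 against D0, 3 fell and 2 rose in KO, where 34.5% and 27.0% of all tested genes did. In WT, 6 fell and 1 rose, where 26.0% and 27.5% did. Klrb1 fell most by adjusted p, to 0.758 ± 0.42 CPM in KO D2 against 14.7 ± 3.44 CPM in KO D0 (SD, n = 3 each; log2 fold change -4.26, SE 0.43, edgeR adjusted p = 2.5e-06), and by 5.17 in WT (SE 0.47, edgeR adjusted p = 1.5e-06). Cd69, an early activation marker of lymphocytes, rose by 3.35 in KO (SE 0.36, edgeR adjusted p = 4.0e-06) and by 3.03 in WT (SE 0.41, adjusted p = 4.4e-05). Klrb1b, an inhibitory NKR-P1 receptor, was the 1 gene of this list called between genotypes at D2, with 72.7 ± 7.77 CPM in KO D2 and 50.3 ± 6.68 CPM in WT D2 (SD, n = 3 each; log2 fold change 0.53, SE 0.14, edgeR adjusted p = 0.017). At D2, 1.61% of all tested genes were called higher in KO. Clec12b was at 0 counts in all 11 libraries.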

How the data were processed

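The submitters' processing notes name build mm10, Salmon 0.13.1 (also written 13.1), DESeq2 1.22.2, Trimmomatic 0.36 and bcl2fastq 2.20.0.422, with no role given. The authors deposited whole-number counts per Entrez ID, which may be rounded estimates; the strand setting is not given in the sources used here. RefSeq (GRCm38.p6) matched 24387 of 24421 IDs.

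edgeR 4.0.16 (R 4.3.3) fitted its robust quasi-likelihood model, with TMM scaling and filterByExpr, to all 11 libraries with 4 group means and 7 residual degrees of freedom. The call was an adjusted p (Benjamini-Hochberg, over 13711 genes) below 0.05, and the code was tested on simulated data. SE came from the F statistic; DESeq2 1.42.0 was an alternative. All members are reported, with fixed lists of adaptors, signalling genes, ligands and other lectin receptors, naming at most the 2 called genes with the smallest adjusted p per comparison and genes at 0 counts. Members and lists were chosen with earlier results of these data known. Transcript GC and shared 31-base stretches came from GENCODE vM21, and promoters from RefSeq.

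Same-numbered KO and WT libraries at D2 deviated together from their group means (r = 0.217, 0.198 and 0.114), so the numbers were taken as pairs there, from the data and not from the labels. The 3 GC offset fits (alone, with the block within day, with the block across days) were added after the data were seen. Where the labels call samples individual mice, WT and KO cells of a chimera may still share 1 mouse, and p-values measure the spread between these samples.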

Additional observations from a re-analysis of the deposited data

Results flagged for a closer look

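Klrk1 was the 1 member whose KO and WT libraries separated in opposite directions on the 2 title days. It had 1270, 1205 and 1205 CPM in KO D2, against 1063, 956.9 and 950.7 CPM in WT D2, and 1500, 1326 and 1102 CPM in KO D0, against 1609 and 1628 CPM in WT D0. Every KO library lay above every WT library at D2 and below every WT library at D0. Over all tested genes, the KO and WT libraries did not overlap for 33.8% at D2 and 16.5% at D0. The share that separated in opposite directions was not computed. The test of the difference itself gave a log2 value of 0.614 (SE 0.18) and did not pass, with an edgeR adjusted p of 0.060. With the GC offset and the block within day the value was 0.31 (edgeR adjusted p = 0.061). KO D0 replicate 1 adds nothing to that value, as WT D0 has no replicate 1 to pair with it. No group holds 4 or more libraries, so single libraries were not tested for standing apart.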

How the results depend on the processing

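Of the single-gene results, 166 alternative values for KO against WT at D2, 166 at D0, 132 for D2 against D0 in KO, 125 in WT and 157 for the difference between genotypes kept their direction and their side of the threshold. The counts of members called are not part of these totals. Where a value moved, the cause was not tested. For KO against WT at D2, where 0 members were called, RLE scaling called 2 (3.21% of all genes were called higher), DESeq2 2 (5.08%), the fit of the compared groups alone 4 (4.02%), the replicate block within day 5 (6.56%), the block across days 2 (3.22%), the block within day with GC offset 4 (14.4%) and the block across days with GC offset 1 (11.7%). At D0, where 0 were called, the block within day called 5, all lower (1.17% of all genes). For D2 against D0 in KO, where 2 were called, RLE scaling, DESeq2 and the block across days each called 3, the addition being Klre1, higher (0.53, edgeR adjusted p = 0.022 under the block). The GC offset called 8 lower (35.3% of all genes), as did the block across days with GC offset (36.8%). In WT, where 4 were called lower, DESeq2 called 5 (25.8% of all genes were called lower) and the block across days 6 (27.5%). The compared groups alone called 7 (27.3%), the GC offset 8 (33.3%) and GC offset and across-day block together 9 (34.9%). For the difference between genotypes, where 0 were called, DESeq2 called 1 (0.671% of all genes were called higher), the block within day 9 (4.51%), the block across days 3 (1.01%) and the block within day with GC offset 2 (7.61%). In the fits blocked within day, KO D0 replicate 1 has no WT partner and adds nothing to this difference or to the D0 comparison. The members' median difference was 0.78 with the block within day. It was also 0.78 with no block and without KO D0 replicate 1, a fit that called 4. Leaving out each library in turn gave between 0 and 1 calls for KO against WT at D2, 0 at D0, between 2 and 5 for D2 against D0 in KO, between 3 and 7 in WT, and between 0 and 4 for the difference. Of all genes, these fits called at most 1.86% higher in KO against WT at D2 and at most 0.640% higher for the difference. For D2 against D0 they called between 23.1% and 26.8% higher and between 32.3% and 36.6% lower in KO. In WT they called between 20.9% and 27.3% higher and between 21.9% and 29.1% lower. At D0 and across days the check of the pairing was mixed. Same-numbered libraries correlated at 0.028 and 0.41 for KO D0 with WT D0, at 0.043, 0.011 and 0.104 for KO D2 with KO D0, and at 0.008 and 0.159 for WT D2 with WT D0. They correlated at 0.218, 0.152 and 0.201 for WT D2 with KO D0 and at 0.134 and 0.162 for KO D2 with WT D0. The first 3 sets are the groups that a comparison sets against each other and did not all exceed 0.1. KO D0 replicate 1 with WT D0 replicate 2, of unlike number, reached 0.376. Calls under those blocks are therefore given here, and those at D0 also with the D0 result. A narrower class of 1144 genes of low GC content, also set after the data were seen, had medians of 0.10 at D2, -0.12 at D0, 0.21 for D2 against D0 in KO, 0.01 in WT and 0.23 for the difference.

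Directions turned as follows, in log2 fold change. For KO against WT at D0, the GC offset, the block within day with GC offset and the block across days with GC offset gave 0.27, 0.38 and 0.30 for Klrc2, 0.30, 0.39 and 0.305 for Klrd1, 0.18, 0.23 and 0.18 for Klrb1f, 0.06, 0.002 and 0.053 for Klre1, and 0.069, 0.018 and 0.07 for Klri2. For D2 against D0 in KO, RLE scaling and DESeq2 each gave 0.013 for Klrk1, 0.029 for Klrb1f and 0.10 for Klrg1, and the compared groups alone gave 0.054 for Klrg1. Klrc1 turned to -0.24 with the GC offset, -0.195 with the block across days and GC offset, and -0.13 when summed with Klrc2 and Klrc3. Klre1 turned to -0.22 with either GC setting, and Klri2 to -0.084 with a mean of at least 5 CPM, -0.63 with the GC offset and -0.63 with the block across days added. For D2 against D0 in WT, Klre1 turned to -0.042 with no filter, -0.11 with a mean of at least 5 CPM, -0.048 with the compared groups alone, -0.33 with the GC offset, -0.096 under the across-day block and -0.335 with both. For the difference between genotypes, Klrd1 turned to -0.18 with the GC offset, -0.27 with the block within day added and -0.18 with the block across days added, and with the GC offset and the block within day Klrc2 turned to -0.058 and Klrb1f to -0.007. Leaving out each library in turn spread Klrc1 between -0.10 and 0.27 for KO against WT at D2. At D0 it spread Klrd1 between -0.70 and 0.035, Klrb1f between -0.27 and 0.063, Klre1 between -0.57 and 0.03 and Klri2 between -0.60 and 0.043. For D2 against D0 in KO it spread Klrc1 between -0.14 and 1.01, Klrd1 between -0.715 and 0.019, Klrb1f between -0.275 and 0.034, Klri2 between -0.26 and 0.39 and Klrg1 between -0.26 and 0.065, and in WT Klrc1 between -0.505 and 0.045 and Klre1 between -0.13 and 0.087. Depth did not limit the members, each with at least 1412 counts in every library, and the 2 WT D0 libraries limit what D0 can show.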
